A study of Mus musculus with 7 samples.

Results

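The genes of serotonin synthesis, vesicle storage, breakdown and sensing were followed in sorted mouse β-cells: Tph1, Tph2, Ddc, Slc18a1, Slc18a2, Maoa, Maob, Htr2b, Htr1b and Htr1d. They were chosen by symbol, as genes of the pathway described to respond to metabolic demand in β-cells, and make up 10 of the 35013 gene symbols measured. Poly-A RNA-seq libraries came from 7 mice, 2 with the Aldh1a3 KO_db/db genotype, 2 db/db and 3 db/+, with 1 library per mouse, to ask how removal of Aldh1a3 from β-cells changes their transcripts in diabetes. By the study's account all groups carried RIP-Cre Herr, a Cre recombinase driven by the rat insulin promoter, and a single floxed R26R-tdTomato reporter allele (tdT fl/+). KO_db/db mice were Aldh1a3 fl/fl and Lepr db/db, db/db controls were Aldh1a3 fl/+ and Lepr db/db, and db/+ lean controls were Aldh1a3 fl/+ and Lepr db/+, so that the controls also carried a floxed Aldh1a3 allele in cells with Cre. db/db mice lack the long leptin receptor and become obese and hyperglycemic. By the study's methods the mice of its experiments were adult males and females, and the labels give no sex for these libraries. The methods describe a sort on YFP and on a fluorescent ALDH substrate, and do not spell out the gate for these libraries. They state that mice were fasted before their islets were isolated for sorting and RNA-seq.

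Serotonin is made from tryptophan in a pair of steps: tryptophan hydroxylase, encoded by Tph1 in peripheral tissues and by Tph2 in neurons, uses tetrahydrobiopterin to make 5-hydroxytryptophan, and aromatic amino acid decarboxylase (Ddc) removes the carboxyl group. Vesicular monoamine transporters load the amine into granules, and monoamine oxidases in the outer mitochondrial membrane break it down. In rodent β-cells the pathway is known from pregnancy, when prolactin receptor signalling strongly raises Tph1, and serotonin then acts on Htr2b to support β-cell expansion and on Htr1b and Htr1d, which couple to inhibitory G proteins.

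Of the 10 genes, 8 had an entry among the RefSeq promoters of GRCm38.p6, with 11 start sites. The 250 bases before the start are shown for both hydroxylase genes, which encode enzymes of the same step but differed in level, and for Ddc, the most abundant gene of the pathway per length. Tph1 and Ddc each have 2 starts in the table. The downstream start is shown for Tph1 (chr7:46667378-46667627) and both are shown for Ddc (chr11:11898145-11898394 and chr11:11890409-11890658), beside the start of Tph2 (chr10:115185023-115185272). All these genes lie on the minus strand, and sequences are written 5′ to 3′ on the gene's strand. Capitals mark the letters CCAAT or TATAA on either strand (ATTGG and TTATA in the other direction).
Tph1: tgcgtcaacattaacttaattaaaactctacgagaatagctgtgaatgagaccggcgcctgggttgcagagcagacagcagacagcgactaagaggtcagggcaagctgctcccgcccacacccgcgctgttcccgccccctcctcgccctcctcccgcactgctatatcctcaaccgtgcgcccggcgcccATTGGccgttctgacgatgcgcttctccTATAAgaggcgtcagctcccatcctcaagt
Tph2: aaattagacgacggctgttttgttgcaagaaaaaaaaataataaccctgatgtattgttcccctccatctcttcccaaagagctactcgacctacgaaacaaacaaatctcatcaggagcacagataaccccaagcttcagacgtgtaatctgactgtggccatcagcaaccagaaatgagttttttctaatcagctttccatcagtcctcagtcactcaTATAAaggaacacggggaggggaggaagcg
Ddc, upstream start: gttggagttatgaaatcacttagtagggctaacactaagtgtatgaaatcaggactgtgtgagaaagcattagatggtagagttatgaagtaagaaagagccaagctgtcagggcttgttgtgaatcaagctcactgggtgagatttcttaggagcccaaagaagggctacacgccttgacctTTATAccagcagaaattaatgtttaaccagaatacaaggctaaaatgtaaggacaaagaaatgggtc
Ddc, downstream start: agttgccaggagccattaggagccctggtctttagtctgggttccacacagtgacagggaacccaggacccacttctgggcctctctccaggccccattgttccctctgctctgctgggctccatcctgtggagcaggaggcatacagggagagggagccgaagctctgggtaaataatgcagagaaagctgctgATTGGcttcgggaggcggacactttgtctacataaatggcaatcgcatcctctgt
TATAA ended 25 bases before the start of both Tph1 (downstream start) and Tph2, and ATTGG lay 53 bases before that Tph1 start and 50 bases before the downstream start of Ddc. The reversed TTATA of Ddc lay 62 bases before its upstream start. Either strand of TATAA occurred in 22.8% and either strand of CCAAT in 33.8% of the 32851 promoter windows of this length. A STAT-type palindrome (TTCNNNGAA, in 7.02% of all windows), the cAMP response element (TGACGTCA, in 1.55%) and the longer interferon-type motif GAS-long (in 0.0578%) were in none of the 11 windows. The E box CANNTG, in 66.2% of all windows, occurred before starts of Htr2b, Htr1d, Slc18a2 and Maoa. These matches describe letters, and the counts per gene do not tell which start was used.

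Total counts ran from 27496645 to 35852785 per library, and the detection floor, set at 3 counts, corresponded to 0.0717 to 0.123 CPM, the depth-scaled count unit, here with TMM factors of edgeR. TMM moves the db/db levels down and the db/+ levels up relative to CPM of the plain total, with factors from 0.869 to 1.23. It moves KO_db/db mouse 1 up (factor 0.886) and KO_db/db mouse 2 down (factor 1.15). Aldh1a3, the targeted gene, stood at 4.97 and 7.89 CPM in KO_db/db, 98.4 and 194 CPM in db/db, and 0.205, 0.0729 and 0.589 CPM in db/+. Of 12 β-cell markers 11 were in the table, and they took 24.8% to 38.7% of the counts in every library. The 18 acinar markers took 12.2% and 1.30% of the counts in KO_db/db, 0.0227% to 0.0402% in db/db and 0.000811% to 0.0183% in db/+. The summed counts of 4 Y-linked genes were 2911 in db/+ mouse 3 and 20 to 79 in the other libraries. Thus no KO_db/db or db/db library had high Y-linked counts, and sex was not balanced between the groups by this measure.

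In db/db against db/+ β-cells, Ddc, Slc18a1 and Maob fell, and no gene of the set rose. These were 3 of the 5 genes that passed the filter on low counts, beside 18.0% of all 13406 genes tested that fell, 19.9% that rose and 37.8% that changed in either direction (quasi-likelihood test of edgeR, Benjamini-Hochberg adjusted p under 0.05). Fold changes below carry their standard error (SE). In KO_db/db against db/db, Maob alone of 6 tested genes changed, and it rose, beside 0.126% of 13486 genes that rose, 0.193% that fell and 0.319% that changed. Relative to db/+, KO_db/db β-cells were again lower in Ddc, Slc18a1 and Maob, 3 of 6 tested genes, beside 17.9% of 13228 genes that fell, 20.5% that rose and 38.4% that changed. The 3 comparisons share libraries and are not independent of one another. Over the 5 genes tested in all 3 comparisons, the median log2 fold change was -0.82 for db/db over db/+, -0.83 for KO_db/db over db/+ and 0.25 for KO_db/db over db/db, beside medians of 0.01, -0.00 and -0.02 over all genes tested.

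**Figure D1:**
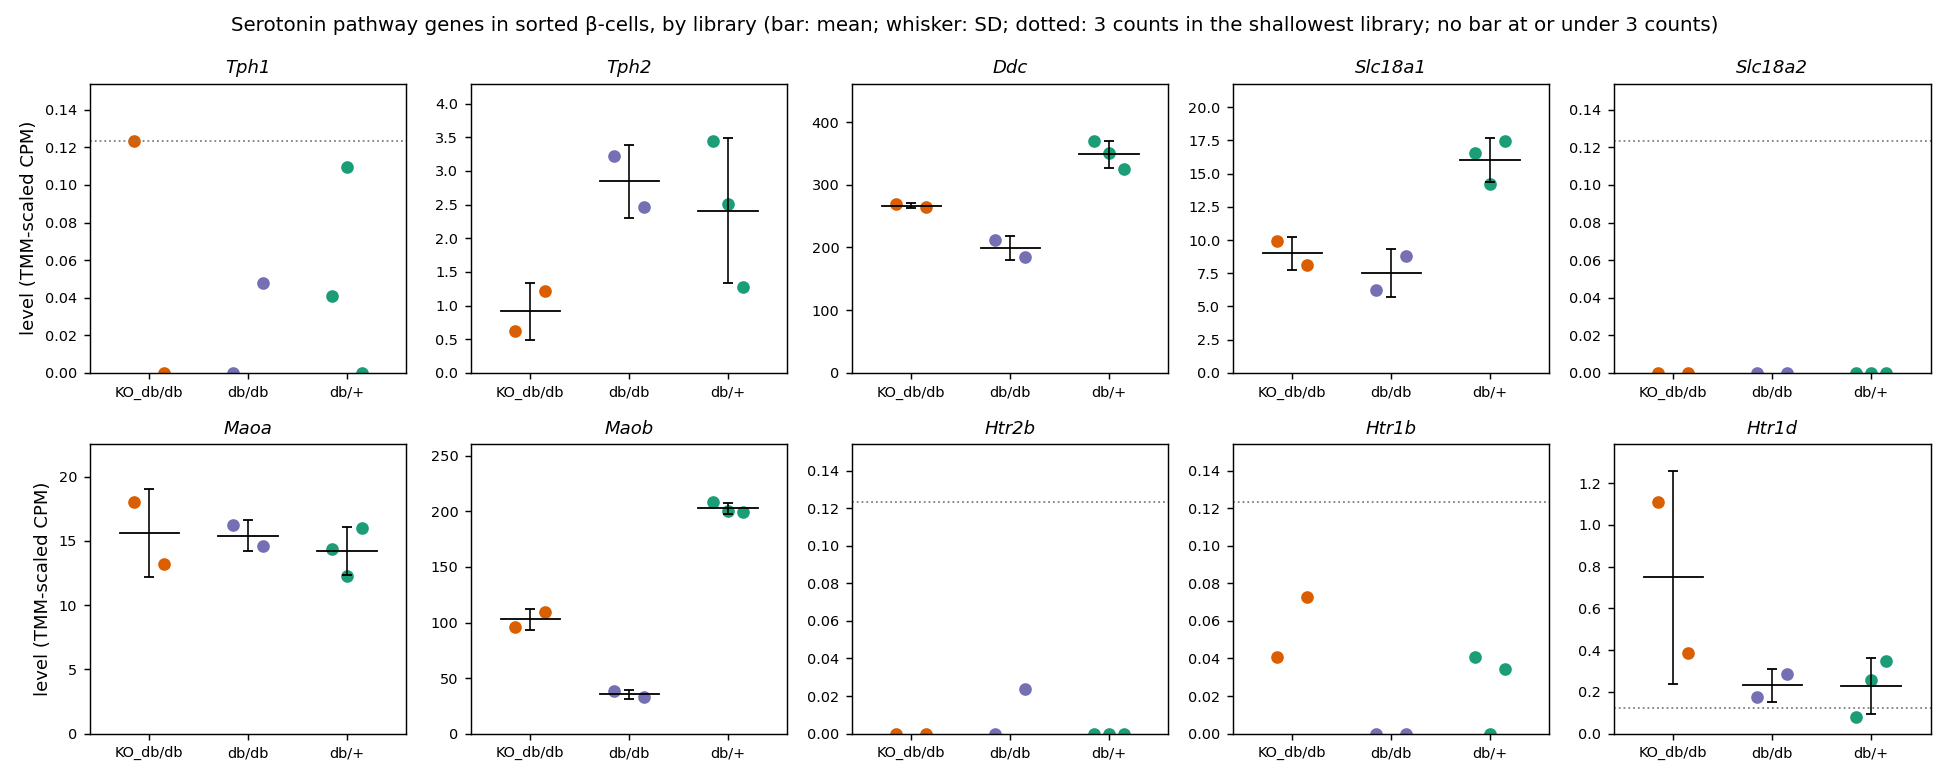
Level of each of the 10 genes in TMM-scaled CPM (vertical axis, linear, a scale for each gene) by group, with 1 point per library, the group mean as a bar and the SD as a whisker. Maob separated all 3 groups, from 32.7 to 38.0 CPM in db/db, 96.2 to 109 in KO_db/db and 200 to 208 in db/+, whereas Tph1, Slc18a2, Htr2b and Htr1b lay at or under 3 counts, where no mean is drawn.

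The hydroxylase transcripts were scarce. Tph1 (ENSMUSG00000040046.14), on chromosome 7 of GRCm38 from 46644641 to 46672537, had 9 counts in all 7 libraries together. There were 3 and 0 counts in KO_db/db, 0 and 2 in db/db, and 1, 3 and 0 in db/+. Thus Tph1 did not exceed the floor in any library, and no difference between groups could be detected at this depth, where a count of 0 allows up to 3 counts, or 0.0717 to 0.123 CPM.

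Tph2 (ENSMUSG00000006764.8), the neuronal form, lies on chromosome 10 from 115078641 to 115185022 and was above the floor in all 7 libraries. Its level was 0.616 and 1.21 CPM in KO_db/db (15 and 50 counts), 3.23 and 2.46 CPM in db/db (110 and 103 counts), and 3.44, 2.52 and 1.28 CPM in db/+ (84, 69 and 37 counts). Both KO_db/db libraries lay under every other library, by a narrow margin against db/+ mouse 3, and on plain CPM (0.546 and 1.39 against 1.12 in that mouse) the groups overlapped. The log2 fold change was -1.61 (SE 0.48, edgeR adjusted p = 0.168) in KO_db/db against db/db and -1.36 (SE 0.55, edgeR adjusted p = 0.0910) in KO_db/db against db/+. Neither passed the threshold. Leaving out 1 library gave -2.20 to -1.23 for the first and -1.96 to -0.98 for the second, both with the lowest value without KO_db/db mouse 2 and the highest without KO_db/db mouse 1. Without db/+ mouse 3 the second was -1.66 with an adjusted p of 0.0407 from edgeR. Between db/db and db/+ the log2 fold change was 0.23 (SE 0.44, edgeR adjusted p = 0.713), and without db/+ mouse 3 it was -0.077. The libraries of these groups overlapped on TMM-scaled CPM. On plain CPM both db/db libraries (3.88 and 3.03) lay above the db/+ libraries (2.99, 2.20 and 1.12).

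Ddc, the decarboxylase (ENSMUSG00000020182.16), was by contrast abundant. It lies on chromosome 11 from 11814101 to 11898144, where the antisense gene 1700042O10Rik overlaps it, and whether the counts used strand is not given in the sources used here. Its level was 270 and 264 CPM in KO_db/db, 213 and 185 CPM in db/db, and 369, 350 and 326 CPM in db/+. The order db/db, KO_db/db, db/+ held without overlap on this scale. Ddc was lower in db/db than in db/+ by a log2 fold change of -0.82 (SE 0.12, edgeR adjusted p = 0.00338), a 1.77-fold difference. In sorted bulk samples, fewer cells with a transcript and less of it per cell cannot be told apart. Relative to the lean libraries KO_db/db was lower, at -0.38 on the log2 scale (SE 0.12, edgeR adjusted p = 0.0404), and this call was lost without KO_db/db mouse 1 (adjusted p = 0.112), KO_db/db mouse 2 (0.111), db/+ mouse 1 (0.128) or db/+ mouse 2 (0.0937). Against db/db the log2 fold change was 0.42 (SE 0.15, edgeR adjusted p = 0.219). On plain CPM the KO_db/db libraries (239 and 303) overlapped both the db/db (255 and 228) and the db/+ libraries (285 to 320). The group means kept their order, so that only the separation of KO_db/db from the other groups depends on the scaling.

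Of the vesicular transporter genes, Slc18a1, which encodes VMAT1, the form of endocrine cells, was the one detected. Slc18a2, encoding VMAT2, lies on chromosome 19 from 59260896 to 59296012 and had 0 counts in all 7 libraries, which allows up to 3 counts in each. Slc18a1 (ENSMUSG00000036330.12) lies on chromosome 8 from 69037711 to 69089235 and overlaps Atp6v1b2 and Gm15716 on the opposite strand. Its level was 9.89 and 8.13 CPM in KO_db/db, 6.25 and 8.79 CPM in db/db, and 16.5, 14.2 and 17.4 CPM in db/+. All 4 libraries of Lepr db/db mice lay below the lean libraries, while the KO_db/db and db/db libraries overlapped. Slc18a1 fell by 1.10 on the log2 scale in db/db against db/+ (SE 0.20, edgeR adjusted p = 0.00722). The log2 fold change of KO_db/db over the lean group was -0.83 (SE 0.16, edgeR adjusted p = 0.00872), and over db/db it stood at 0.25 (SE 0.25, edgeR adjusted p = 0.590).

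The monoamine oxidases differed from each other. Maoa, whose enzyme prefers serotonin, and Maob, whose enzyme prefers phenylethylamine and also takes dopamine, are neighbours on chromosome X in opposite orientation, from 16619698 to 16687818 (Maoa) and from 16709282 to 16817366 (Maob), 21463 bases apart. Maob (ENSMUSG00000040147.14) was at 96.2 and 109 CPM in KO_db/db, 38.0 and 32.7 CPM in db/db, and 208, 201 and 200 CPM in db/+. No libraries of different groups overlapped, on this scale or on plain CPM. db/+ mouse 3, with high counts of Y-linked genes, had the same level as the other lean mice.

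Maob was the gene of the set with the most negative fold change in db/db against db/+, at -2.53 on the log2 scale (SE 0.12, edgeR adjusted p = 0.000175), a 5.78-fold difference. In KO_db/db it was 2.90-fold higher than in db/db, a log2 fold change of 1.54 (SE 0.15, edgeR adjusted p = 0.0453), and lower than in db/+ by -0.97 (SE 0.10, edgeR adjusted p = 0.00130). The rise in KO_db/db against db/db kept its size under every alternative, from 1.43 to 1.65. Its call was lost without KO_db/db mouse 1 (adjusted p = 0.0515), without db/db mouse 1 (adjusted p = 0.0848) and with the mouse number as a block (adjusted p = 0.0958), whereas with the acinar markers left out the adjusted p was 0.0416 and with DESeq2 7.01e-14.

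Maoa (ENSMUSG00000025037.6) was at 18.0 and 13.2 CPM in KO_db/db, 16.3 and 14.6 CPM in db/db, and 14.4, 12.3 and 16.0 CPM in db/+. The groups overlapped throughout. The log2 fold changes were 0.10 in db/db against db/+ (SE 0.16), 0.13 in KO_db/db against db/+ (SE 0.18) and 0.01 in KO_db/db against db/db (SE 0.21), with adjusted p of 0.655, 0.591 and 0.980 from edgeR. On plain CPM the db/db libraries (19.5 and 17.9) lay above the KO_db/db libraries (16.0 and 15.1), and these above the db/+ libraries (10.7 to 14.0), without overlap.

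Receptor transcripts were at or near the floor. Htr2b, the Gq-coupled receptor, on chromosome 1 from 86099026 to 86111970 and overlapping Psmd1 on the opposite strand, had 1 count, in db/db mouse 2. Htr1b, on chromosome 9 from 81628291 to 81633828, had 1 and 3 counts in KO_db/db, 0 and 0 in db/db, and 1, 0 and 1 in db/+. Neither was above the floor in any library, and no difference could be detected.

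Htr1d (ENSMUSG00000070687.11), on chromosome 4 from 136423524 to 136444398, was measured at a low level. It had 27 and 16 counts in KO_db/db (1.11 and 0.388 CPM), 6 and 12 counts in db/db (0.176 and 0.287 CPM), and 2, 7 and 10 counts in db/+ (0.0819, 0.255 and 0.346 CPM). Both KO_db/db libraries were above the others, the second by little. Htr1d passed the filter only in the comparisons with KO_db/db, the group where it was high. The log2 fold change was 1.64 against db/db (SE 0.80, edgeR adjusted p = 0.305) and 1.66 against db/+ (SE 0.78, edgeR adjusted p = 0.136), and without KO_db/db mouse 1 the values were 0.73 and 0.75. KO_db/db mouse 1 was also the library with the highest acinar share (12.2%), and the part of acinar RNA in this result was not tested.

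**Figure D2:**
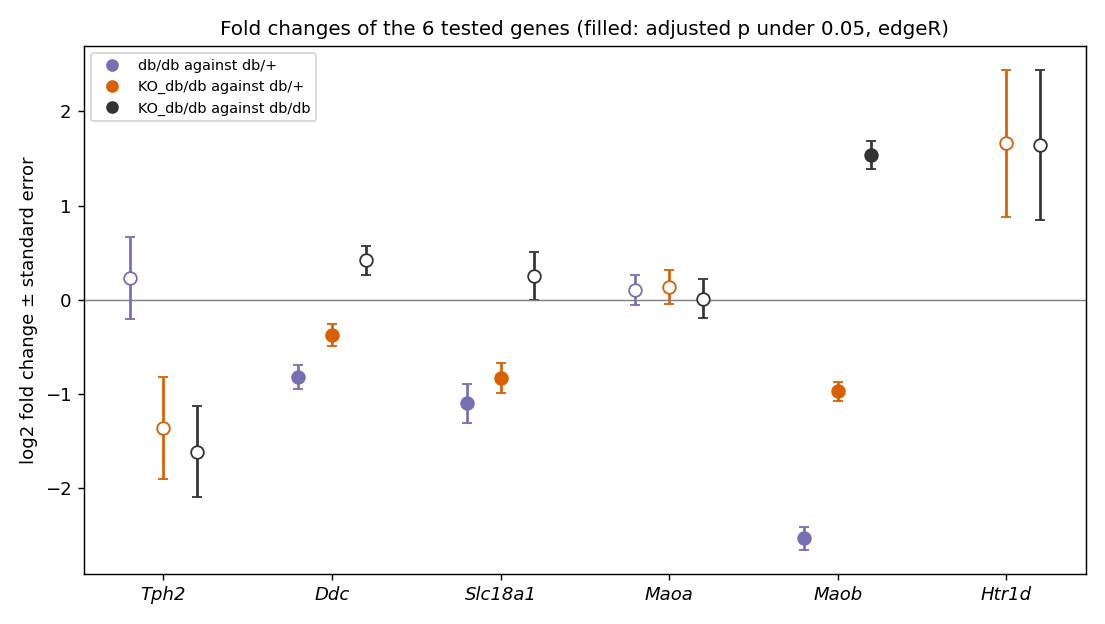
Log2 fold change (vertical axis) of the 6 genes tested, with the standard error as a whisker, for the 3 comparisons, where filled points passed an adjusted p of 0.05. Maob lies at -2.53 in db/db against db/+ and at 1.54 in KO_db/db against db/db, while Maoa lies between 0.01 and 0.13 in all 3 comparisons.

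Libraries that do not overlap were counted on TMM-scaled CPM. Of the 5 genes tested in all 3 comparisons, 3 were lower in both db/db libraries than in every db/+ library (30.7% of all genes tested) and none was higher (32.6%). On plain CPM Ddc, Slc18a1 and Maob were again lower. Maoa (19.5 and 17.9 against 10.7 to 14.0) and Tph2 (3.88 and 3.03 against 1.12 to 2.99) were then higher without overlap. For KO_db/db over db/+ on the TMM scale, 4 of these 5 were lower (32.5% of all genes) and none was higher (31.7%). On plain CPM Slc18a1 and Maob stayed lower, Ddc and Tph2 overlapped, and Maoa was higher (16.0 and 15.1 against 10.7 to 14.0). For KO_db/db over db/db on the TMM scale, 2 of the 5 were higher (28.4% of all genes), namely Ddc and Maob, and 1, Tph2, was lower (29.1%). On plain CPM Maob stayed higher and Tph2 lower, Ddc overlapped, and Maoa was lower. Htr1d is left out of these counts, since it entered the fits only through the group where it was high.

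Per kilobase of merged exons, the mean level in db/+ was 78.1 ± 4.86 CPM per kb for Ddc (SD, n = 3) and 72.7 ± 1.71 for Maob, which ranked 308 and 336 among 12386 genes. The ranges of these neighbours in the order overlapped, from 73.0 to 82.7 for Ddc and from 71.5 to 74.7 for Maob. With the longest transcript as length the means were apart, at 173 for Ddc and 84.1 for Maob, so that their closeness depends on the length used. Maoa followed with 3.42 ± 0.446 and Slc18a1 with 2.97 ± 0.309, whose ranges overlapped and whose order reversed when the longest transcript was used as length (3.42 and 5.15). Tph2 had 0.838 ± 0.376 and Htr1d 0.0712 ± 0.0420 CPM per kb. In db/db the rank of Maob was 2114 and that of Ddc 528, and in KO_db/db 667 and 377.

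**Figure D3:**
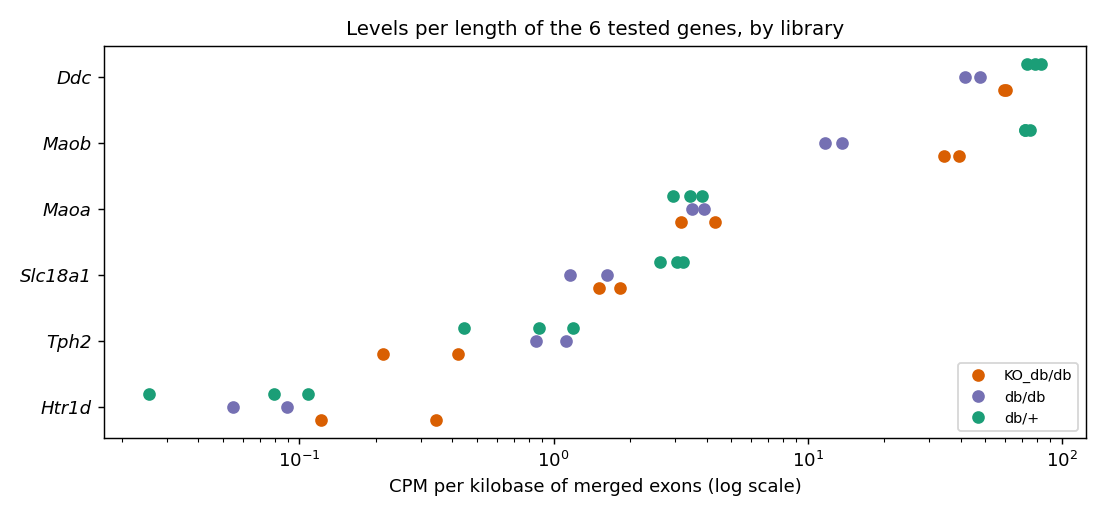
Level in CPM per kilobase of merged exons (horizontal axis, log scale) of the 6 tested genes, with 1 point per library coloured by group. Ddc and Maob lie far above Maoa, Slc18a1, Tph2 and Htr1d, and Maob spans from 11.7 in db/db to 74.7 in db/+.

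The genes whose profile over the 7 libraries was most like that of each gene were found by Pearson's r of log2 CPM among 7651 genes, as a description in which all points share libraries and group differences. For Maob these were Fkbp3 (r = 0.996), Sh3bgrl3 (0.995) and Hibadh (0.994), the last encoding a dehydrogenase of valine breakdown. For Ddc they were Cyp4v3 (0.993), Heatr5a (0.992) and Hspa12a (0.992), and for Slc18a1 Pcna (0.988), Ascc1 (0.985) and Spa17 (0.985). The nearest genes to Maoa were Spout1 (0.982), Slc7a6 (0.981) and Ankhd1 (0.963), and to Tph2 Natd1 (0.977), Fam217b (0.975) and Rpp14 (0.970).

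Markers of other cells that make or store monoamines were read beside these levels. Of 9 mast cell markers, 6 to 7 were at 0 in every library, Mcpt4 and Tpsb2 among the defining ones, and Kit and Hdc made up nearly all of the rest. The summed level of the list was 16.1 and 18.9 CPM in KO_db/db, 13.7 and 20.9 in db/db, and 3.88 to 6.60 in db/+, opposite to the order of Ddc and Maob in db/db against db/+. Of 6 platelet markers 4 to 5 were at 0. Their sum was 0.123 and 0.267 CPM in KO_db/db, 0.117 and 0.0717 in db/db, and 0.589 to 1.19 in db/+, the same order of group means as Ddc and Maob. Gp9, a platelet glycoprotein, had 12 to 26 counts in db/+, 1 in each KO_db/db library and 0 in both db/db libraries. It passed the test in db/db (edgeR adjusted p = 0.00839) and in KO_db/db (edgeR adjusted p = 0.00995) relative to db/+. However, Gp9 passed the filter on low counts only in the comparisons with db/+, the group where it was high. The order of the platelet sum came from Gp9. Itga2b, the other platelet marker with more than 1 count, did not have it, at 0.0821 and 0.243 CPM in KO_db/db, 0.0880 and 0.0717 in db/db, and 0.0729 to 0.173 in db/+. The 4 delta-cell markers summed to 652 and 519 CPM in KO_db/db, 169 and 87.4 in db/db, and 2331, 767 and 381 in db/+, the same order of group means as Maob, with none at 0. The place of db/+ above KO_db/db in this sum rested on db/+ mouse 1. Sst and Rbp4 had that order of means, whereas Hhex and Ghsr were higher in KO_db/db (0.965 and 1.30 CPM) than in db/+ (0.789 and 0.971 CPM). Of the 11 β-cell markers tested, 10 fell in db/db against db/+ (median log2 fold change -1.41), beside 18.0% of all genes. In KO_db/db 7 were lower than in db/+ (17.9% of all genes) and 1 rose against db/db (0.126%). The part of these shifts in the levels of Ddc, Slc18a1 and Maob was not tested.

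Over the 10 lists of pathway genes together, 31 of 62 genes tested changed in db/db against db/+ and 24 of 61 in KO_db/db relative to db/+, beside 37.8% and 38.4% of all genes tested. These include Inmt, Kynu and Tgm3 in the first comparison and Sult1a1 in the second, each tested only through the group where it was high. Tetrahydrobiopterin, the hydroxylase cofactor, is made by Gch1, Pts and Spr and recycled by Pcbd1, Pcbd2 and Qdpr. All 8 genes of this list were tested, and in db/db against db/+ 4 fell and 1 rose. Gch1 (chromosome 14, 47153895 to 47189413), the rate-limiting enzyme, was at 84.0 and 84.0 CPM in KO_db/db, 50.9 and 52.5 CPM in db/db, and 208, 183 and 175 CPM in db/+. It thus separated the 3 groups in the same order as Maob, with a log2 fold change of -1.88 for db/db over db/+ (SE 0.12, edgeR adjusted p = 0.000447) and -1.16 for KO_db/db over db/+ (SE 0.11, edgeR adjusted p = 0.000972). Pts was lower by -1.04 in db/db and by -0.72 in KO_db/db, and Qdpr by -0.59 in db/db. Gchfr (chromosome 2, 119167773 to 119172390), the feedback regulator that inhibits the Gch1 enzyme, was the exception.

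Gchfr was at 5.58 and 2.65 CPM in db/db, 0.246, 0.182 and 0.450 CPM in db/+, and 0.739 and 0.777 CPM in KO_db/db. Both db/db libraries lay above all others, and the log2 fold change against db/+ was 3.77 (SE 0.53, edgeR adjusted p = 0.00270), or 3.14 without db/db mouse 1. Between KO_db/db and db/+, 4 of the 8 genes fell and none rose, beside 17.9% of all genes tested that fell and 20.5% that rose. Among them Pcbd1 fell by 0.67 and Pcbd2 by 0.61. The call of Pcbd2 was lost without KO_db/db mouse 1, KO_db/db mouse 2, db/+ mouse 1 (edgeR adjusted p = 0.0746) or db/+ mouse 3 (0.0588). No gene of this list, nor of any other pathway list below, passed the threshold in KO_db/db against db/db, where 0.319% of all genes did. Of the 61 pathway genes tested there, 19 had an unadjusted p under 0.05, beside 20.9% of all genes, and DESeq2 called 14 of 60, beside 10.6% of the 12963 genes to which it gave an adjusted p, with Gch1, Gchfr, Slc7a8, Fev and Lmx1b among the 14. By edgeR the log2 fold change of Gch1 there was 0.70 (SE 0.12, edgeR adjusted p = 0.0897) and that of Gchfr -2.43 (SE 0.49, edgeR adjusted p = 0.105), with no overlap between the libraries.

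**Figure D4:**
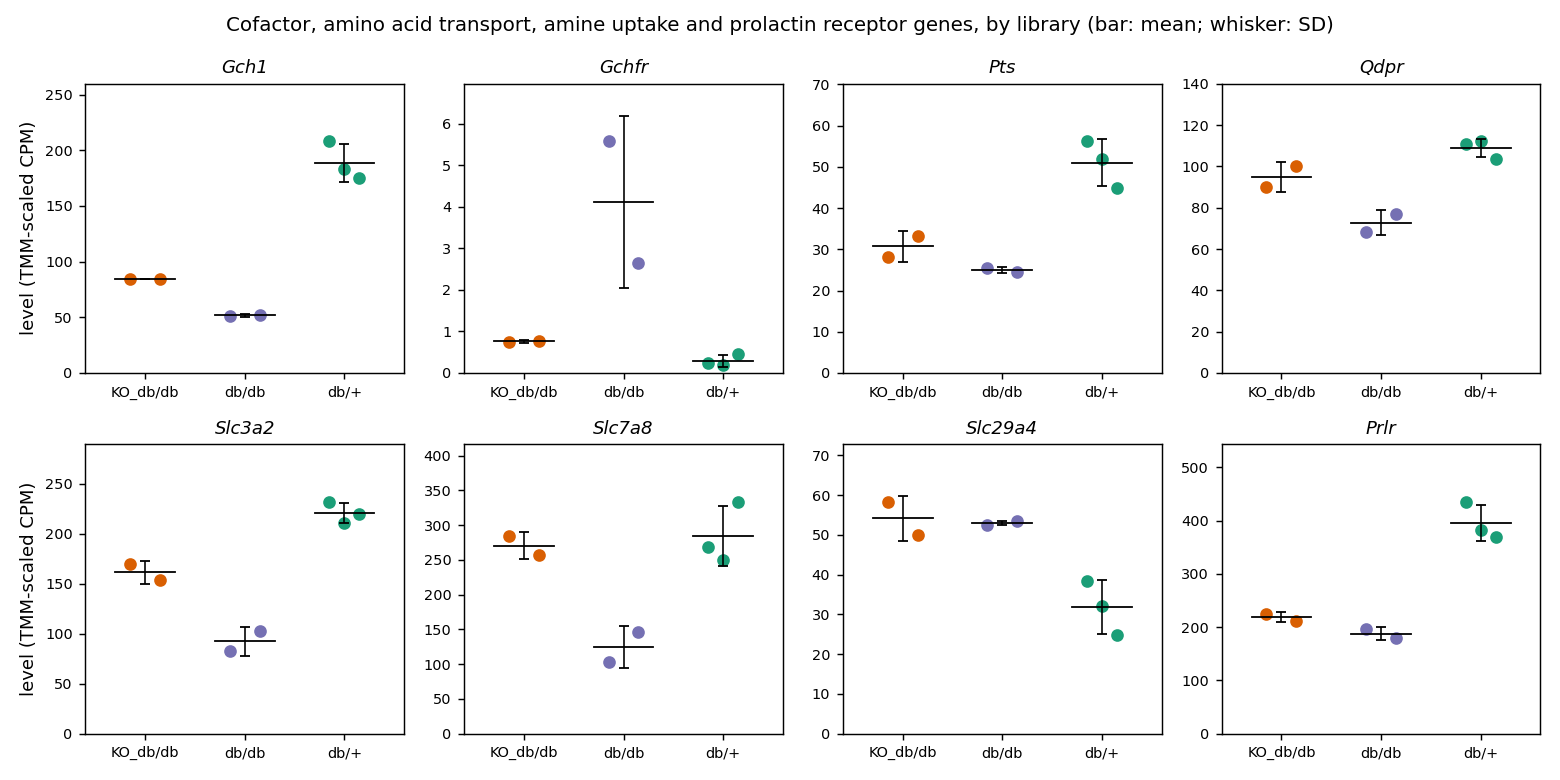
Level in TMM-scaled CPM (vertical axis, linear) of 4 cofactor genes, 2 tryptophan carriers, the amine carrier Slc29a4 and the prolactin receptor by group, with 1 point per library, the mean as a bar and the SD as a whisker. Gch1 lies at 50.9 to 52.5 in db/db, 84.0 in KO_db/db and 175 to 208 in db/+, and Gchfr is high in the db/db libraries at 2.65 and 5.58.

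Tryptophan enters cells through Slc7a5 or Slc7a8, each paired with the heavy chain Slc3a2, and through Slc6a19. In db/db against db/+, 5 of 9 tested genes of tryptophan uptake and kynurenine breakdown fell and 1 rose. Kynu, among those that fell, passed the filter only in the comparisons with db/+, the group where it was highest. Of all genes tested, 18.0% fell and 19.9% rose in db/db against db/+, and 17.9% fell and 20.5% rose in KO_db/db against db/+. Slc7a8 was at 103 and 146 CPM in db/db, 284 and 256 CPM in KO_db/db, and 269, 251 and 333 CPM in db/+. The db/db libraries stood below all others, and the log2 fold change in db/db against db/+ was -1.20 (edgeR adjusted p = 0.00515). Slc6a19, at 3.35 and 4.75 CPM in db/db and 14.6 to 19.1 CPM in db/+, fell by 2.01, and Slc3a2 fell by 1.27. Between KO_db/db and db/+, 1 of 9 rose and 1 fell, which was Slc3a2 at -0.44 (edgeR adjusted p = 0.0164), a call lost without KO_db/db mouse 2 (0.0693) or db/+ mouse 1 (0.0621).

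Uptake of released serotonin depends on Slc6a4, the high-affinity transporter, or on the low-affinity carrier Slc29a4. Slc6a4 was at 1.07 CPM in KO_db/db mouse 1 and at 0 to 0.0819 CPM in the other libraries. Slc29a4 was at 58.2 and 50.1 CPM in KO_db/db, 52.6 and 53.4 CPM in db/db, and 38.4, 32.0 and 24.8 CPM in db/+. Of the 7 genes of this list Slc29a4 and Slc22a2 could be tested, and Slc29a4 changed, higher by 0.73 in db/db (edgeR adjusted p = 0.0200) and by 0.78 in KO_db/db (edgeR adjusted p = 0.0169) than in db/+. The first call was lost without db/db mouse 1 (adjusted p = 0.0508), db/db mouse 2 (0.0620) or db/+ mouse 2 (0.0622), and the second without KO_db/db mouse 1 (0.0858) or db/+ mouse 2 (0.0525). Of the 7 and 8 tested genes of later serotonin metabolism, 2 fell in db/db relative to db/+, and for KO_db/db 2 rose and 1 fell. Inmt, among those that fell in db/db, passed the filter only in the comparisons with db/+, where it was highest. Sult1a1, among those that rose in KO_db/db, passed it only in the comparisons with KO_db/db, where it was highest. Of all genes tested, 37.8% changed in db/db and 38.4% in KO_db/db relative to db/+. Aldh2, which oxidises the aldehyde that monoamine oxidase leaves, was higher in KO_db/db than in db/+ by 0.66 (edgeR adjusted p = 0.0122, 0.0526 with all 7 libraries in 1 fit). Akr1b3, an aldose reductase, was lower by -0.56 in db/db and by -0.45 in KO_db/db, and the adjusted p over the alternatives reached 0.0706 and 0.137.

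Of the 11 other serotonin receptors, Htr5b alone could be tested. It was at 0.792 and 0.502 CPM in db/db, 0.123 and 0.340 CPM in KO_db/db, and 0 to 0.205 CPM in db/+, and did not pass the threshold. Beyond the receptors, among genes of their G proteins and effectors 3 of 11 tested rose and 2 fell in db/db relative to db/+, and in KO_db/db 6 of 11 rose and 1 fell. Of all genes tested, 19.9% rose and 18.0% fell in db/db, and 20.5% rose and 17.9% fell in KO_db/db. Plcb1, a phospholipase C activated by Gq, was at 31.4 and 27.0 CPM in KO_db/db, 22.0 and 21.6 CPM in db/db, and 10.4, 10.6 and 11.4 CPM in db/+. It rose by 1.00 in db/db and by 1.44 in KO_db/db against db/+ (adjusted p = 0.00213 and 0.000759 from edgeR). Genes of the inhibitory G proteins went in both directions. Gnai2 was lower in db/db than in db/+ by -0.70 (edgeR adjusted p = 0.0110) and Gnai3 by -0.59 (edgeR adjusted p = 0.0154), the latter call being lost without db/db mouse 2 (0.0621), db/+ mouse 1 (0.0601) or db/+ mouse 2 (0.0587). Gnao1 was higher in db/db by 0.66 (edgeR adjusted p = 0.0131), a call lost without db/+ mouse 1 (0.0555) or db/+ mouse 2 (0.0512). Gnaz was higher in KO_db/db than in db/+ by 1.00 (edgeR adjusted p = 0.00708), and Plcb4 was higher in KO_db/db by 1.23 (edgeR adjusted p = 0.00118). Adra2a, the adrenergic receptor that inhibits insulin release through the same G proteins, was at 64.1 and 68.3 CPM in KO_db/db, 88.5 and 99.5 CPM in db/db, and 131 to 158 CPM in db/+, with log2 fold changes against db/+ of -1.15 in KO_db/db and -0.66 in db/db. It was the 1 gene of the catecholamine list that passed the threshold in each of these comparisons.

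The prolactin receptor gene Prlr, through which lactogens raise Tph1 in pregnancy, was at 225 and 212 CPM in KO_db/db, 197 and 179 CPM in db/db, and 435, 383 and 369 CPM in db/+. Both groups of Lepr db/db mice lay below the lean group, KO_db/db by a log2 fold change of -0.85 (edgeR adjusted p = 0.00386) and db/db by -1.09 (edgeR adjusted p = 0.00157). Of the 9 genes of lactogen and STAT5 signalling, 3 fell and 2 rose in db/db relative to db/+, and in KO_db/db 3 fell and 1 rose, beside 37.8% and 38.4% of all genes that changed. Jak2, the kinase bound to the receptor, was higher in KO_db/db by 0.86 (edgeR adjusted p = 0.00241) and in db/db by 0.59 (edgeR adjusted p = 0.0337), the latter call being lost without db/db mouse 2 (0.152), db/+ mouse 1 (0.112), db/+ mouse 2 (0.0903) or db/+ mouse 3 (0.0527). Socs3, a feedback inhibitor of the kinase, was higher in db/db by 1.02 (edgeR adjusted p = 0.0317), a call lost without db/db mouse 1 (0.113), db/db mouse 2 (0.0643), db/+ mouse 1 (0.0936) or db/+ mouse 2 (0.0749). Cish, a STAT5 target that restrains cytokine signalling, was at 2.22 and 1.04 CPM in KO_db/db, 9.60 and 2.29 CPM in db/db, and 13.2, 38.3 and 10.6 CPM in db/+. The log2 difference of Cish between KO_db/db and db/+ was -3.71 (edgeR adjusted p = 0.00842), or -2.89 without db/+ mouse 2 and -4.30 without KO_db/db mouse 1. Socs2, of the same family, was lower in KO_db/db by -2.07 (edgeR adjusted p = 0.0167), a call lost without KO_db/db mouse 2. In db/db it was lower by -2.02 (edgeR adjusted p = 0.0239), and by -2.67 to -1.56 when 1 library was left out. The db/db call was lost without db/db mouse 2, db/+ mouse 1 (0.0599) or db/+ mouse 2 (0.0605).

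Among transcription factors of serotonergic neurons, 2 of 6 tested fell in db/db relative to db/+ (18.0% of all genes), and 1 of 7 rose in KO_db/db (20.5%). Lmx1b was at 19.9 and 15.7 CPM in KO_db/db, 7.13 and 5.57 CPM in db/db, and 4.33 to 4.45 CPM in db/+, and rose by 2.03 in KO_db/db against db/+ (edgeR adjusted p = 0.000710). Fev, which activates Tph2 and Ddc in serotonergic neurons, was at 3.98 and 2.82 CPM in KO_db/db, 0.880 and 0.454 CPM in db/db, and 3.19, 1.42 and 2.08 CPM in db/+. The log2 difference of Fev between db/db and db/+ was -1.76 (edgeR adjusted p = 0.0398), a call lost without db/db mouse 2 (0.152), db/+ mouse 1 (0.125) or db/+ mouse 3 (0.0704). Of the 6 genes of serotonylation tested in db/db against db/+, in which transglutaminases attach serotonin to small GTPases, 2 rose and 1 fell, beside 19.9% and 18.0% of all genes. Tgm3, among those that rose, passed the filter only in the comparisons with db/db, the group where it was high. Rab4a, a target of this modification, rose by 1.20 (edgeR adjusted p = 0.00392), from 20.1, 21.4 and 24.4 CPM in db/+ to 61.2 and 40.6 CPM in db/db. Rhoa, another such GTPase, was lower by -0.46 (edgeR adjusted p = 0.0393), a call lost in each fit without 1 library except that without db/db mouse 1. Of the 5 genes of this list tested in KO_db/db relative to db/+, 0 rose and 1 fell in edgeR, beside 20.5% and 17.9% of all genes. Rab4a was higher by 0.51 there, at an unadjusted p of 0.0249 from edgeR (adjusted p = 0.0606), and was called by DESeq2. The gene that fell was Rhoa, lower by -0.36 (edgeR adjusted p = 0.0252), a call lost without KO_db/db mouse 1 (0.0940), KO_db/db mouse 2 (0.0778), db/+ mouse 1 (0.0724) or db/+ mouse 2 (0.0683), and with all 7 libraries in 1 fit (0.0754) or the mouse number as a replicate block (0.0880).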

How the data were processed

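Poly-A RNA of sorted β-cells was measured in 7 mice, grouped by the genotype in the labels. The authors deposited estimated counts per gene, rounded to whole numbers and not normalized, made with bcl2fastq 2.19 and kallisto 0.44.0 on GRCm38 according to the submitters' processing notes. The annotation release and strandedness are not given in the sources used here. Of the table's 35013 symbols 14637 had no count anywhere, and 0 columns of values were unused. From these counts each pair of groups was fitted separately in R 4.3.3 with edgeR 4.0.16: filterByExpr (minimum count 10), TMM scaling, the quasi-likelihood test, and Benjamini-Hochberg adjustment over all genes tested, at 0.05. Levels are CPM scaled by TMM over all libraries. p-values measure the spread between mice.

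The 10 genes, the pathway and marker lists and the tests were chosen with earlier results of these data known. Beyond the 10 genes and Aldh1a3, up to 4 genes per list and comparison are named, those of largest fold change that passed the threshold, reached a mean of 1 CPM and did not overlap between groups. Htr5b, Slc6a4, Fev outside db/db against db/+, Gp9, Itga2b, Sst, Rbp4, Hhex, Ghsr, Kit, Hdc, Mcpt4, Tpsb2, Tgm3, Inmt, Sult1a1 and Kynu were named after their values were seen. A result on 1 further gene is not reported here. Likeness names the 3 genes with the highest r among genes of at least 10 CPM. Coordinates come from GENCODE M21, matched by 34273 symbols, and promoters from RefSeq GRCm38.p6. The CAAT and TATA box letters and the alternatives for the pathway genes were added after the data were seen. The fits were tested on simulated data. DESeq2 1.42.0, other scaling, no filter, a joint fit, the mouse number as a block, acinar markers left out, a threshold of 0.01 and leaving out each library were alternatives.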

Additional observations from a re-analysis of the deposited data

How the results depend on the processing

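Of 198 fold changes of the serotonin genes under the alternatives, 180 kept their direction and their side of the threshold, 11 lost a call, 1 gained a call and 6 changed sign. For the named pathway genes the numbers were 430 of 504 unchanged, 74 with a call lost and 0 with a change of sign. In KO_db/db against db/db the count of genes past the threshold was 43, and 1374 with DESeq2, 1570 without a filter on low counts, 818 with all 7 libraries in 1 fit, 22 with the mouse number as a replicate block, 0 at an adjusted p under 0.01, and 0 to 225 when 1 library was left out. Leaving out db/db mouse 1 gave the 0. The count of serotonin genes was 1, and 0 with the block, 0 at 0.01 and 0 to 1 when 1 library was left out (0 without KO_db/db mouse 1 or db/db mouse 1). Against db/+, the count of genes was 5069 in db/db (2479 at 0.01, 3331 to 4394 when 1 library was left out) and 5081 in KO_db/db (2394 at 0.01, 3060 to 4725 when 1 library was left out). The lowest counts followed leaving out db/+ mouse 1 and KO_db/db mouse 1. The cause was not tested. A group left with 1 library is assumed to vary like the others.

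The mouse numbers were checked for pairing by the correlation of same-numbered libraries' deviations from their group means over 13789 genes, which ran from -0.102 to 0.0759. In a group of 2 libraries the deviations mirror each other, so this check could not exclude pairing. The labels state no pairing, and the main fits took the mouse number as a name only. With it as a block, 4479 genes passed between db/db and db/+ and 3856 between KO_db/db and db/+, Maoa in KO_db/db against db/db was -0.00200 and Tph2 in db/db against db/+ was -0.0720, and the calls of Maob in KO_db/db against db/db (edgeR adjusted p = 0.0958) and of Ddc in KO_db/db against db/+ (0.0933) were lost. Ddc also lost that call without a filter (0.0545). Leaving out 1 library gave Maoa from -0.226 (without KO_db/db mouse 1; also -0.0668 without db/db mouse 2) to 0.228 for KO_db/db over db/db and from -0.107 (without KO_db/db mouse 1) to 0.334 for KO_db/db over db/+. It gave Tph2 from -0.0767 (without db/+ mouse 3) to 0.571 for db/db over db/+. Depth limited Tph1, Slc18a2, Htr2b and Htr1b, which were at or under 3 counts.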
